A study of Mus musculus with 6 samples.

Results

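The enzymes that break down tyrosine and tryptophan were examined in liver RNA-seq of acute ethanol-exposed and control mice. The members were the 9 rows of the deposited table whose gene name is Tat, Hpd, Hgd, Fah, Tdo2, Afmid, Kmo, Kynu or Haao, 9 of 28880 genes, with 4 in the tyrosine branch and 5 in the tryptophan branch. All 9 passed the filter on low counts that kept 16717 genes for testing. All 6 mice were wild-type male C57BL/6J, 6 to 8 weeks old, with free access to food and water as the general housing condition. The 3 mice of the ethanol group were fasted for 12 h and then gavaged once with 6 g/kg of ethanol as a 50% (v/v) solution, 24 h before the liver was collected. The 3 control mice were kept without ethanol. The sources used here do not say that control mice were fasted or gavaged, so ethanol, fasting and gavage cannot be told apart. A single dose models acute injury only, and all 6 libraries carry the same batch label.

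Both pathways act mainly in hepatocytes and clear aromatic amino acids that are not used for protein. Tyrosine is deaminated by tyrosine aminotransferase (Tat), and its carbon is then carried through 4-hydroxyphenylpyruvate dioxygenase (Hpd), homogentisate 1,2-dioxygenase (Hgd) and fumarylacetoacetate hydrolase (Fah) to fumarate and acetoacetate. Tryptophan is opened by tryptophan 2,3-dioxygenase (Tdo2) to formylkynurenine, which arylformamidase (Afmid) converts to kynurenine. Kynurenine 3-monooxygenase (Kmo), kynureninase (Kynu) and 3-hydroxyanthranilate 3,4-dioxygenase (Haao) continue towards quinolinate, a precursor of NAD. Tat and Tdo2 catalyse the entry steps and are textbook examples of liver genes induced by glucocorticoids, while loss of Fah, Hgd or Hpd causes inherited disorders of tyrosine breakdown.

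Acute ethanol exposure was accompanied by higher RNA of both entry enzymes and lower RNA of Kynu. Tat was 4.39-fold and Tdo2 3.06-fold higher in ethanol-exposed mice, and Kynu was 3.31-fold lower. Genes were called by edgeR's quasi-likelihood test where the Benjamini-Hochberg adjusted p, taken over all genes tested, was under 0.05 and the change exceeded 1 on the log2 scale in either direction. By this rule 2 of the 9 members were upregulated and 1 was downregulated. Among all genes tested, 10.4% were upregulated and 13.8% downregulated by the same rule. On the adjusted p alone, 3 members were higher (Tat, Tdo2 and Fah, against 21.5% of all genes) and 2 were lower (Kynu and Haao, against 21.5% of all genes), and Hpd, Hgd, Afmid and Kmo did not pass. The study also placed Tat in its signature of hepatocyte-associated genes, which it chose partly on these libraries. That placement is therefore not independent evidence for the direction of Tat. By quantitative PCR, the study reports higher Tat in livers of ethanol-exposed mice from a cohort that it calls independent.

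All fold changes depend on how the libraries are scaled. TMM factors were 0.768 to 0.836 in the ethanol group and 1.26 to 1.27 in the control group. Over all genes, the median change was -0.04 (log2) with TMM and -0.71 with library size alone. Tat and Tdo2 were higher and Kynu and Haao lower in ethanol-exposed mice under each of the 17 alternative settings of the test, whereas Hpd, Hgd, Fah and Afmid were higher with TMM and lower with library size alone. Measured from the median of all genes, the values were nearly the same with TMM and with library size alone. Hgd, for example, lay 0.21 above that median on the log2 scale both with TMM and with library size alone. A change of scaling moves all genes by nearly the same amount. This likeness therefore follows from the arithmetic and is no evidence for either scaling. CPM below is the count relative to the TMM-scaled library, FPKM is the deposited value relative to gene length and library size with no such factor, and TPM is FPKM rescaled to the same sum in each library.

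Total counts per library were 60514417 to 74210869, so counting error was small for every member (lowest count 2202, Kynu in ethanol replicate 3). The 10 hepatocyte markers listed for this work were all detected, with summed levels of 131580 to 134055 CPM in ethanol-exposed and 73822 to 85948 CPM in control livers. Of these, 7 of 10 were higher on the adjusted p alone (21.5% of all genes tested). Their median log2 fold change was 0.69 under TMM and 0.02 with library size alone. The share of counts on the mitochondrial chromosome was 8.50% to 9.26% in the ethanol group and 5.45% to 7.40% in the control group. The median gene length weighted by counts was 2505 to 2523 bases in the ethanol group and 2666 to 2945 in the control group. Summed erythroid markers were at 476 to 708 CPM against 157 to 193 CPM, with 4 of 6 markers over 3 counts in every library. Summed Kupffer cell and macrophage markers overlapped between the groups, at 123 to 168 CPM and 153 to 170 CPM. On the adjusted p alone 2 of 10 were lower (21.5% of all genes tested). Summed monocyte and neutrophil markers also overlapped, at 21.4 to 34.6 CPM and 24.0 to 32.4 CPM, a sum made up mostly of Lyz2 (log2 fold change -0.42, not called). Of 7 tested, 4 were upregulated and 1 downregulated (10.4% and 13.8% of all genes tested), all at low counts. S100a8 (6.29), S100a9 (3.98), Retnlg (4.08) and Cxcr2 (4.16) rose on the log2 scale. Ccr2 fell (-8.30), with 0 counts in every ethanol-exposed mouse. B cell markers summed to 2.91 to 4.501 CPM against 4.70 to 6.34, and T and NK cell markers to 0 to 0.715 CPM against 0.945 to 1.34, so that both separated at very low levels. Endothelial markers overlapped in sum, at 107 to 190 CPM and 121 to 137 CPM, while Lyve1 (log2 fold change 3.59) and Cdh5 (1.19) were upregulated and Kdr (-1.57) and Oit3 (-1.30) downregulated. Cholangiocyte markers overlapped too, at 57.6 to 75.02 CPM and 31.8 to 73.3 CPM, with Sox9 upregulated (2.78) and the other 4 tested not called. Stellate cell markers lay at 137 to 169 CPM and 120 to 140 CPM, with Col1a1 downregulated (-1.90) and Dcn (0.43) and Colec11 (0.58) higher on the adjusted p alone. With library size alone, 8 of 10 Kupffer cell and macrophage markers were lower on the adjusted p alone (0 higher). So were 5 of 8 endothelial (2 higher) and 4 of 8 stellate cell markers (0 higher), against 48.3% of all genes. The part of these shifts in the results was not tested, and in whole liver fewer cells of a type cannot be told apart from less RNA per cell.

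The proximal promoters of both entry enzymes are printed because their RNA rose, beside that of Haao, whose RNA was lower on the adjusted p alone. Each is the 250 bases before the RefSeq start in GRCm38.p6, written 5′ to 3′ on the strand of the gene. Of the 9 members 8 matched an entry, and Kynu, the downregulated member, did not. The windows are chr8:109990186-109990435, plus strand for Tat, chr3:81975729-81975978, minus strand for Tdo2 and chr17:83846791-83847040, minus strand for Haao. Capitals mark the CCAAT box (CCAAT, or ATTGG on the other strand) and the half-site of the glucocorticoid receptor (TGTTCT, or AGAACA on the other strand).
Tat: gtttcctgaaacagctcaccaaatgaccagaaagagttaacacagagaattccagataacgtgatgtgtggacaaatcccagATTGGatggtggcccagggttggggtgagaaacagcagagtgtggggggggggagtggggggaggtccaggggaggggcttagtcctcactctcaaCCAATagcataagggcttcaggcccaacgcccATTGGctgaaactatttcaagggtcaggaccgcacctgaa
Tdo2: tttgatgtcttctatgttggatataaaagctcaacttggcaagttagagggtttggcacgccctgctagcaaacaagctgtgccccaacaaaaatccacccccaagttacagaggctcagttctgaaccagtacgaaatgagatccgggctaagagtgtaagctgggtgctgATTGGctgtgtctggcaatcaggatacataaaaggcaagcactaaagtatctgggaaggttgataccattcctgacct
Haao: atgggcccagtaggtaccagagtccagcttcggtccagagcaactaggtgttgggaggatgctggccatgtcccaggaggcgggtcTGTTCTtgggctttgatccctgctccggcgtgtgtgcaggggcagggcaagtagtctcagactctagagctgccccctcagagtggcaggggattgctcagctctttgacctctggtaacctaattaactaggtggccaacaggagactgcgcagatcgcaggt

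CCAAT was found in the windows of Tat, Tdo2 and Hgd, 3 of 8 members, and in 33.8% of the 32851 RefSeq windows of the same length. The Tat window held 3 copies, of which the closest began 40 bases before the start, and the Tdo2 window held 1, which began 78 bases before it. TGTTCT was found only in the Haao window among the 8 (16.1% of all windows), 164 bases before the start. TATAAA was found in Tdo2 and Hgd (12.4% of all windows), and GTTAAT, a half-site of HNF1, in Haao (6.43%). The palindromes CACGTG and TTGCGCAA were found in 0 of 8 (6.02% and 0.164% of all windows). All motifs were searched on both strands, and no match in these windows overlapped another. These are matches of letters and not measured sites.

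Tat (ENSMUSG00000001670) lies on chromosome 8 at 110717069 to 110726435 in the deposited table's coordinates. Its FPKM was 3642, 4009 and 2727 in the ethanol-exposed mice and 1244, 1326 and 1186 in the control mice. The lowest ethanol-exposed mouse was above the highest control mouse, and ethanol replicate 3 was the lowest of its group. In CPM the means were 11195 ± 1778 (SD, n = 3) and 2553 ± 142 (SD, n = 3), a log2 fold change of 2.13 ± 0.16 (SE, adjusted p = 0.000173, edgeR). Tat ranked 34 of 16717 genes by mean FPKM in ethanol-exposed livers and 58 in control livers. Leaving out each mouse in turn gave log2 fold changes of 2.05 to 2.27.

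**Figure D1:**
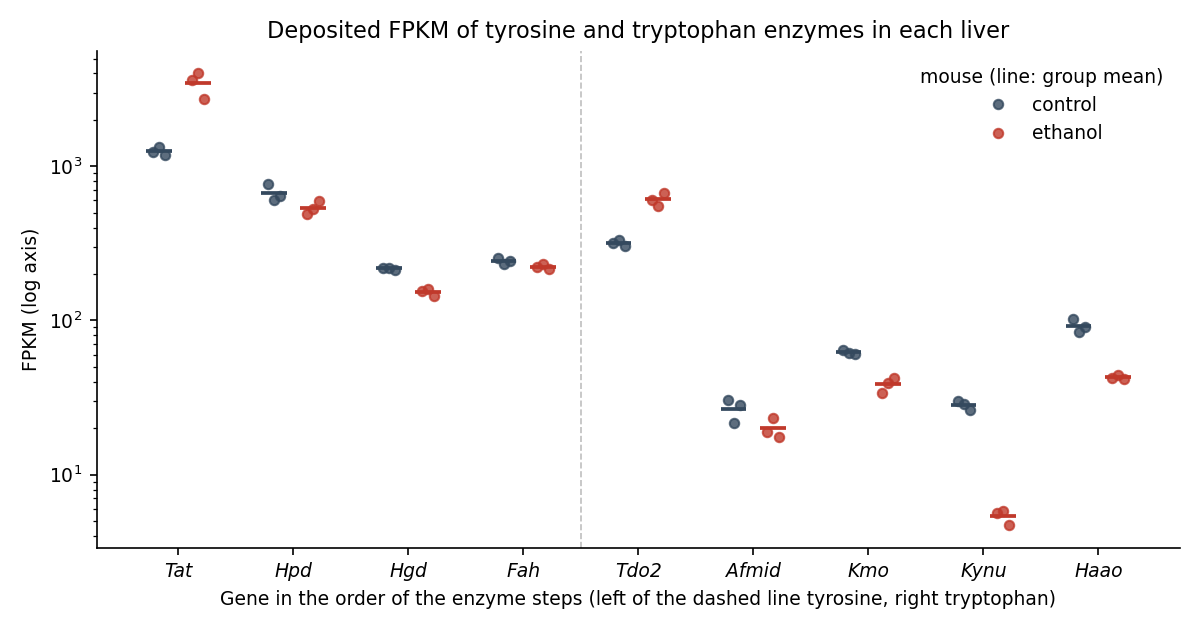
Deposited FPKM (log axis) of the 9 enzymes in the order of the enzyme steps, with 1 point per mouse and a line at each group mean (3 ethanol-exposed and 3 control mice). Tat and Tdo2 lie higher in every ethanol-exposed mouse, the other members except Afmid lie lower in every ethanol-exposed mouse on this scale, and Kynu is at 4.69 to 5.78 against 26.3 to 30.1.

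For the next 3 tyrosine enzymes the direction of the difference depended on the scale. Hpd (ENSMUSG00000029445, chromosome 5, 123309870 to 123320790), which forms homogentisate, had 490, 529 and 600 FPKM with ethanol and 771, 605 and 641 FPKM in controls. In CPM it had 1439, 1442 and 1780 with ethanol and 1387, 1092 and 1160 in controls. The groups did not overlap on either scale, but they lay in opposite order, and the nearest mice of the groups were close, at 600 and 605 FPKM. The log2 fold change was 0.36 ± 0.15 with TMM (SE, adjusted p = 0.0861, edgeR) and -0.31 with library size alone (adjusted p = 0.101). Hpd lies within Psmd9, a gene of the other strand with 1505 to 2143 counts, against 82783 to 130154 for Hpd.

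Hgd (ENSMUSG00000022821, chromosome 16, 37400515 to 37452382) opens the aromatic ring of homogentisate. Its FPKM was 156, 160 and 144 with ethanol and 220, 220 and 214 in controls, while its CPM was 563, 536 and 525 against 487, 488 and 475. The mice of each group lay close together, so that the groups were separate on both scales and again in opposite order. The log2 fold change was 0.16 ± 0.10 with TMM (SE, adjusted p = 0.212, edgeR) and -0.50 with library size alone (adjusted p = 0.00578).

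Fah (ENSMUSG00000030630, chromosome 7, 84234367 to 84255930) catalyses the last step, which yields fumarate and acetoacetate. It had 679, 657 and 665 CPM with ethanol and 479, 438 and 460 CPM in controls. Every ethanol-exposed mouse was higher on this scale, with a log2 fold change of 0.54 ± 0.10 (SE, adjusted p = 0.00489, edgeR). In FPKM, Fah was at 222, 231 and 215 with ethanol and 255, 233 and 244 in controls. The order was thus turned, with a log2 fold change of -0.13 with library size alone (adjusted p = 0.338), and the adjusted p of Fah was over 0.05 there and with limma on FPKM, while it passed with median ratio and upper quartile scaling (adjusted p = 0.00499 and 0.00992) and with DESeq2.

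Tdo2 (ENSMUSG00000028011, chromosome 3, 81864397 to 81883509) had 608, 556 and 669 FPKM in the ethanol-exposed mice and 319, 332 and 306 FPKM in the control mice. No ethanol-exposed mouse came near the control range. In CPM the means were 3215 ± 429 and 1050 ± 41.9 (SD, n = 3 each), a log2 fold change of 1.61 ± 0.14 (SE, adjusted p = 0.000249, edgeR). With library size alone the log2 fold change was 0.94, under the threshold on the fold change. Tdo2 ranked 106 of 16717 by mean FPKM with ethanol and 145 in controls.

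Afmid and Kmo, which form and then hydroxylate kynurenine, overlapped between the groups in CPM. Afmid (ENSMUSG00000017718, chromosome 11, 117716750 to 117730734) had 92.7, 105 and 87.2 CPM with ethanol and 91.1, 65.1 and 84.7 CPM in controls, a log2 fold change of 0.24 ± 0.15 (SE, adjusted p = 0.229, edgeR), or 0.11 without control replicate 2. Its reads may be shared with Gm20708, which covers it on the same strand and had 53 counts in control replicate 3 and 1425 to 2080 in the other libraries. Kmo (ENSMUSG00000039783, chromosome 1, 175447947 to 175488419) had 219, 239 and 279 CPM with ethanol and 257, 246 and 242 CPM in controls. Its log2 fold change was -0.01 ± 0.12 (SE, adjusted p = 0.936, edgeR), while it was -0.68 with library size alone (adjusted p = 0.00287). Kmo overlaps Fh1, the fumarase gene, over 5255 bases on the opposite strand. Fh1 had 33145 to 43257 counts with ethanol and 11505 to 15356 in controls, and whether counting used the strand is not given in the sources used here.

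Kynu (ENSMUSG00000026866, chromosome 2, 43445341 to 43572734), which releases alanine from kynurenine derivatives, had the lowest level with ethanol and the largest fall of the 9. Its FPKM was 5.64, 5.78 and 4.69 in the ethanol-exposed mice and 30.1, 28.7 and 26.3 in the control mice. The 3 mice of each group were close together and far from the other group. In CPM the means were 44.7 ± 3.92 and 148 ± 9.76 (SD, n = 3 each), a log2 fold change of -1.73 ± 0.11 (SE, adjusted p = 0.000119, edgeR). The value was -2.40 with library size alone and -1.53 with the trend with transcript length removed. By mean FPKM, Kynu ranked 1240 of 16717 in control livers and 3582 in ethanol-exposed livers.

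Haao (ENSMUSG00000000673, chromosome 17, 84138585 to 84154241) makes the direct precursor of quinolinate. It had 273, 267 and 272 CPM with ethanol and 404, 334 and 359 CPM in controls, so that every ethanol-exposed mouse was lower. The log2 fold change was -0.43 ± 0.11 (SE, adjusted p = 0.0171, edgeR), under the threshold on the fold change. With library size alone it was -1.10 (adjusted p = 0.000377), past that threshold, which makes Haao the other downregulated member there. Its adjusted p was 0.0545 without control replicate 1, 0.0596 without control replicate 3 and 0.0983 with the length trend removed, with a negative fold change in each case. In FPKM it had 42.3, 44.4 and 41.7 with ethanol and 102, 84.0 and 90.1 in controls.

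**Figure D2:**
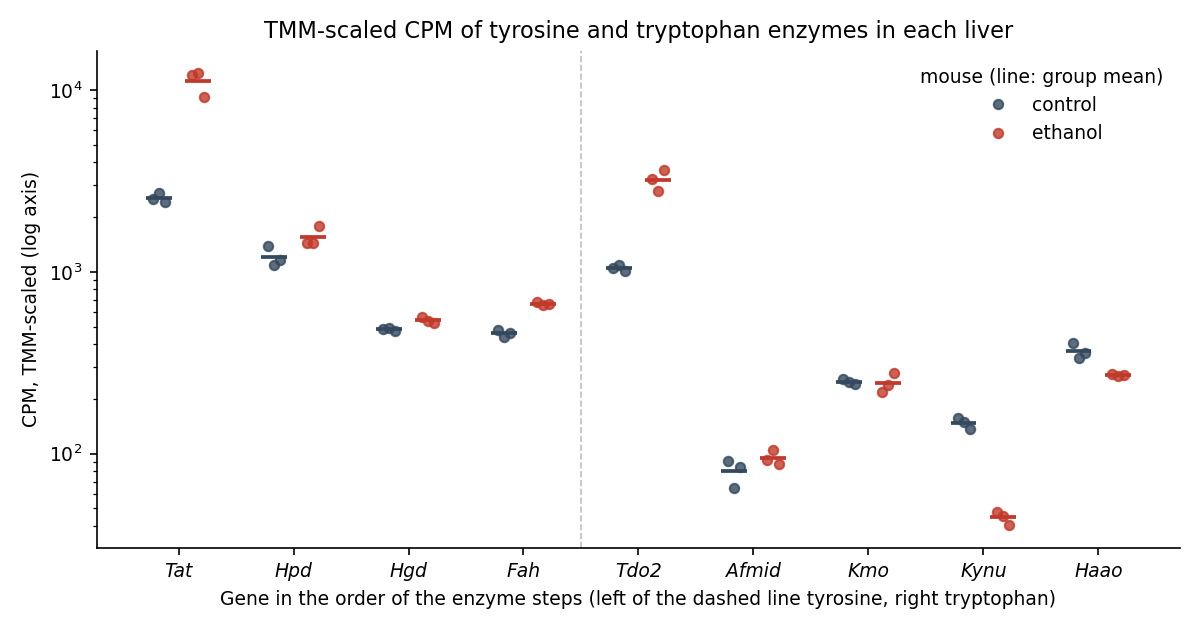
TMM-scaled CPM (log axis) of the 9 enzymes, with 1 point per mouse and a line at each group mean (3 ethanol-exposed and 3 control mice). On this scale Hpd, Hgd and Fah lie higher in every ethanol-exposed mouse, Afmid and Kmo overlap between the groups, and Kynu and Haao lie lower.

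In CPM, 5 members were higher in every ethanol-exposed mouse than in any control mouse (28.0% of all genes tested) and 2 were lower in every one (31.0% of all genes tested), and 2 overlapped. In FPKM, which carries no TMM factor, the same comparison gave 2 higher (9.45% of all genes tested), 6 lower (57.4% of all genes tested) and 1 overlapping. The mean was higher with ethanol for 2 members in FPKM and for 6 in CPM. The plot of fold changes under 5 scalings shows where the sign of each enzyme depends on this choice.

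**Figure D3:**
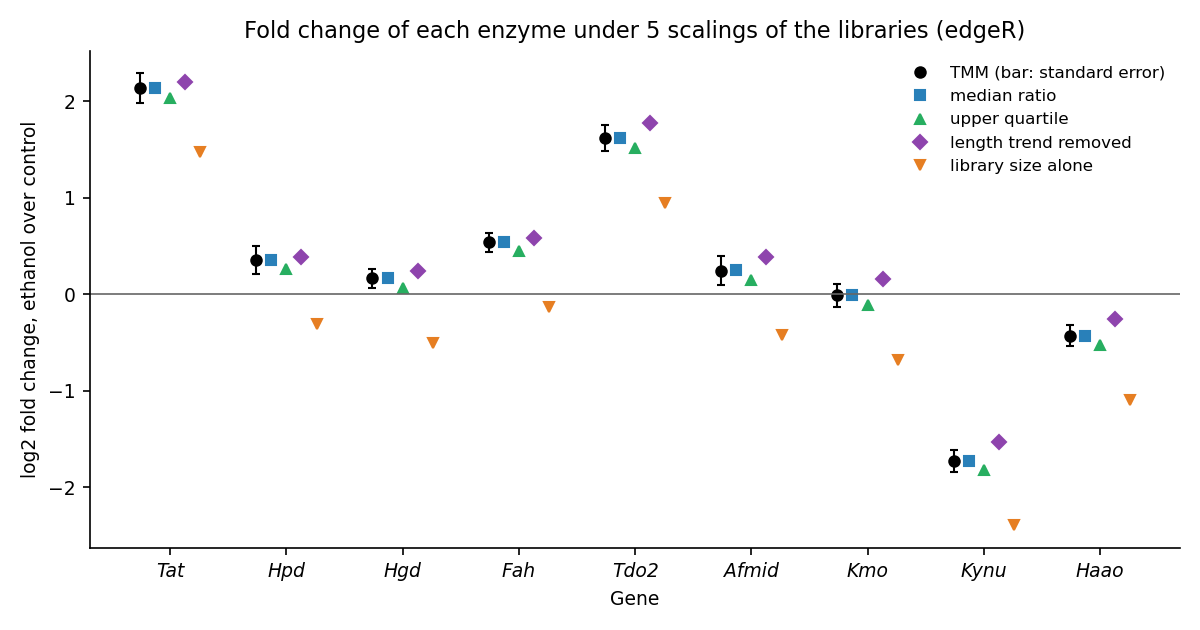
Log2 fold change, ethanol over control, of each enzyme under 5 scalings of the libraries in edgeR (3 against 3 mice, standard error shown for TMM). Tat and Tdo2 stay above 0 and Kynu and Haao below 0 under all 5, while Hpd, Hgd, Fah and Afmid fall below 0 with library size alone and Kmo lies above 0 only with the length trend removed.

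Within a liver, levels per length can be ordered by FPKM. In controls the order of mean FPKM was Tat, Hpd, Tdo2, Fah, Hgd, Haao, Kmo, Kynu and Afmid, from 1252 ± 70.1 for Tat to 26.8 ± 4.56 for Afmid (SD, n = 3). Afmid and Kynu had overlapping ranges in controls, 21.7 to 30.5 and 26.3 to 30.1 FPKM. With ethanol Tdo2 stood above Hpd and Kynu below Afmid. The ranges of Tdo2 and Hpd overlapped there, at 556 to 669 and 490 to 600 FPKM, as did those of Haao and Kmo, at 41.7 to 44.4 and 33.7 to 42.4. The length behind the deposited FPKM was proportional to all merged exons of a gene in GENCODE M21, within 2% for 83.7% of 16282 genes and for 9 of 9 members. A gene with long alternative exons is therefore set low in this order. With the length of the principal transcript, an alternative chosen after seeing the data, mean control levels would be 3.39 times higher for Haao, 2.25 times for Kynu and 1.01 times for Tat, and Hpd would stand above Tdo2 in both groups.

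Ratios between enzymes of the same liver do not depend on the scaling of the library. Tat had 7.43, 7.58 and 4.55 times the FPKM of Hpd, the next enzyme, in ethanol-exposed mice and 1.61, 2.19 and 1.85 times in control mice. Tdo2 had 32.1, 24.0 and 37.9 times the FPKM of Afmid with ethanol and 10.5, 15.3 and 10.9 times in controls. Each entry enzyme was thus further above the following enzyme in every ethanol-exposed mouse than in any control mouse. Kmo had 5.96, 6.83 and 9.03 times the FPKM of Kynu with ethanol and 2.14, 2.14 and 2.29 times in controls. Haao had 7.49, 7.69 and 8.88 times the FPKM of Kynu with ethanol and 3.39, 2.92 and 3.43 times in controls. Kynu was therefore lower against both the enzyme before it and the enzyme after it. The ratio of Fah to Hgd was 1.42, 1.44 and 1.49 with ethanol and 1.16, 1.06 and 1.14 in controls, a smaller shift that still did not overlap.

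Of the 8 pairs compared, 6 did not overlap between the groups, against 55.7% of all pairs of tested genes that were above 0 FPKM in every library. Each of the 6 had an exact two-sided permutation p = 0.10, the smallest that 3 against 3 mice can give (0.133 after Benjamini-Hochberg adjustment over the 8). None could pass a threshold of 0.05 in this design. In log2 the difference between groups was -1.76 for Hpd to Tat, -1.35 for Afmid to Tdo2, -1.71 for Kynu to Kmo, 1.30 for Haao to Kynu, 0.38 for Fah to Hgd and -0.52 for Tdo2 to Tat. Hgd to Hpd differed by -0.19 (exact permutation p = 0.4) and Kmo to Afmid by -0.27 (exact permutation p = 0.3), and both overlapped. Single libraries moved these small differences. Tdo2 to Tat was at -0.33 without ethanol replicate 2, Hgd to Hpd at -0.07 without ethanol replicate 3 and -0.12 without control replicate 2, and Kmo to Afmid at -0.43 without ethanol replicate 3, -0.18 without ethanol replicate 2 and -0.13 without control replicate 2. Tat had 5.99, 7.21 and 4.08 times the FPKM of Tdo2 with ethanol and 3.90, 3.99 and 3.87 times in controls, so that this separation was narrow.

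**Figure D4:**
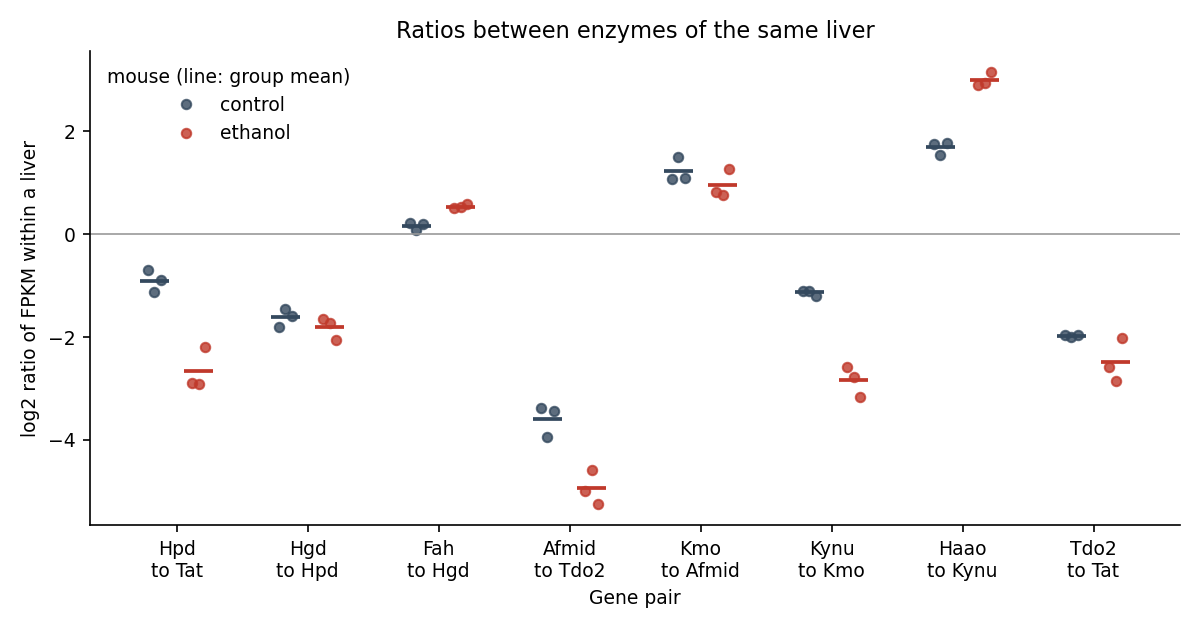
Log2 ratio of FPKM between 2 enzymes of the same liver, for 8 pairs, with 1 point per mouse and a line at each group mean (3 ethanol-exposed and 3 control mice). Hpd to Tat, Afmid to Tdo2 and Kynu to Kmo are lower and Haao to Kynu is higher in every ethanol-exposed mouse, while Hgd to Hpd and Kmo to Afmid overlap.

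Summed over the 9 members, TPM was 10567 ± 1507 in ethanol-exposed and 6688 ± 607 in control livers (SD, n = 3). Tat contributed 7187 ± 1565 TPM with ethanol and 2869 ± 221 TPM in controls. Without it, the tyrosine enzymes summed to 1896 ± 109 with ethanol and 2607 ± 358 TPM in controls. Without Tdo2, the tryptophan enzymes summed to 221 ± 19.4 and 480 ± 60.1 TPM. On the TPM scale the rest of each branch was thus lower with ethanol in every mouse, a direction that for Hpd, Hgd, Fah and Afmid turns under TMM.

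Other genes of the pathways were read from lists written for this work. The 4 lists hold 53 genes, of which 45 were tested. Of these, 7 were upregulated and 5 downregulated (15.6% and 11.1%, against 10.4% and 13.8% of all genes tested). Their median log2 fold change was 0.06 (-0.04 for all genes tested). On the adjusted p alone 13 were higher and 11 lower (21.5% and 21.5% of all genes tested). With library size alone 3 were upregulated (5.06% of all genes) and 14 downregulated (32.2% of all genes).

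Of 14 tested genes around phenylalanine and tyrosine, 4 were upregulated and 1 downregulated (10.4% and 13.8% of all genes tested). With library size alone 4 were higher and 7 lower on the adjusted p alone (7.39% and 48.3% of all genes). Got1, the cytosolic aspartate aminotransferase, had 2119, 2128 and 1361 CPM with ethanol and 164, 120 and 121 CPM in controls, a log2 fold change of 3.79 (adjusted p = 9.93e-05, edgeR). It was higher in every ethanol-exposed mouse, as Tat was. Gchfr, a regulator of tetrahydrobiopterin synthesis, rose by 1.15 and Mif, a cytokine that also has tautomerase activity, by 1.09 on the log2 scale. Both were under 1 with library size alone (0.48 and 0.42) and with the length trend removed (0.78 and 0.76). Mif was also under 1 with upper quartile factors (0.99). Fahd1, a mitochondrial relative of Fah, fell by 1.86 (adjusted p = 0.00562). Gstz1, the isomerase between Hgd and Fah, was at 0.12 (adjusted p = 0.426), or -0.55 with library size alone (adjusted p = 0.00963).

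Of 18 tested genes of kynurenine, NAD and glutarate metabolism, 1 was upregulated and 2 were downregulated, with a median log2 fold change of -0.13. Among all genes tested, 10.4% were upregulated and 13.8% downregulated. With library size alone the median of the list was -0.79. There 1 was higher and 12 were lower on the adjusted p alone, against 7.39% and 48.3% of all genes. Ido2, a dioxygenase that catalyses the same step as Tdo2, had 25.9, 25.2 and 11.6 CPM with ethanol and 93.0, 82.7 and 79.5 CPM in controls. It fell by 2.02 ± 0.30 on the log2 scale (SE, adjusted p = 0.00201, edgeR), in the opposite direction to Tdo2, and Ido1 had no row. Qprt, which uses quinolinate, had 103, 94.5 and 67.7 CPM with ethanol and 153, 156 and 162 CPM in controls, a log2 fold change of -0.83 (adjusted p = 0.00623). Aldh8a1, a dehydrogenase of the branch that leads away from NAD, was at -0.95 (adjusted p = 0.000464). Like Haao, both were lower in every ethanol-exposed mouse and under the threshold on the fold change with TMM, and past it with library size alone (-1.49 for Qprt and -1.61 for Aldh8a1).

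Nampt, which recycles nicotinamide to NAD, had 95.5, 113 and 57.4 CPM with ethanol and 26.4, 25.4 and 25.8 CPM in controls, and rose by 1.78 on the log2 scale (adjusted p = 0.00141, edgeR). Nmnat1, the nuclear enzyme of the next step, fell by 1.55 (adjusted p = 0.00245). Of the transaminases that make kynurenic acid, Kyat1 was at 0.77 (adjusted p = 0.0310), Kyat3 at 0.06 (adjusted p = 0.723) and Aadat at -0.29 (adjusted p = 0.278). Kyat1 was at 0.09 with library size alone (adjusted p = 0.735) and did not pass without ethanol replicate 1 (adjusted p = 0.0789) or without control replicate 1, 2 or 3 (0.0664, 0.106 and 0.107). With each library left out, Kyat3 lay between -0.03 (without ethanol replicate 3) and 0.17, and Aadat between -0.52 (without ethanol replicate 1, adjusted p = 0.0484) and -0.14. Kyat3 was at -0.61 (adjusted p = 0.00829) and Aadat at -0.96 (adjusted p = 0.00532) with library size alone. Acmsd, which diverts the product of Haao away from quinolinate, was at -0.25 (adjusted p = 0.156), or -0.92 with library size alone (adjusted p = 0.000714).

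Of 6 tested genes of other routes, Ddc, the aromatic amino acid decarboxylase, had 28.2, 29.1 and 30.7 CPM with ethanol and 98.8, 103 and 96.3 CPM in controls, a fall by 1.76 on the log2 scale (adjusted p = 7.33e-05, edgeR). Inmt, an N-methyltransferase of indoleamines, rose by 1.17 (adjusted p = 0.0156), or by 0.51 with library size alone (adjusted p = 0.187). It also lost its call without control replicate 2 (adjusted p = 0.0558) or control replicate 3 (adjusted p = 0.0681). Of 7 tested transporters 1 was upregulated (14.3%, against 10.4% of all genes tested). This was Slc43a1, a carrier of large neutral amino acids, with 23.9, 22.4 and 38.0 CPM with ethanol and 6.42, 5.04 and 5.65 CPM in controls (log2 fold change 2.30, adjusted p = 0.000487).

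**Figure D5:**
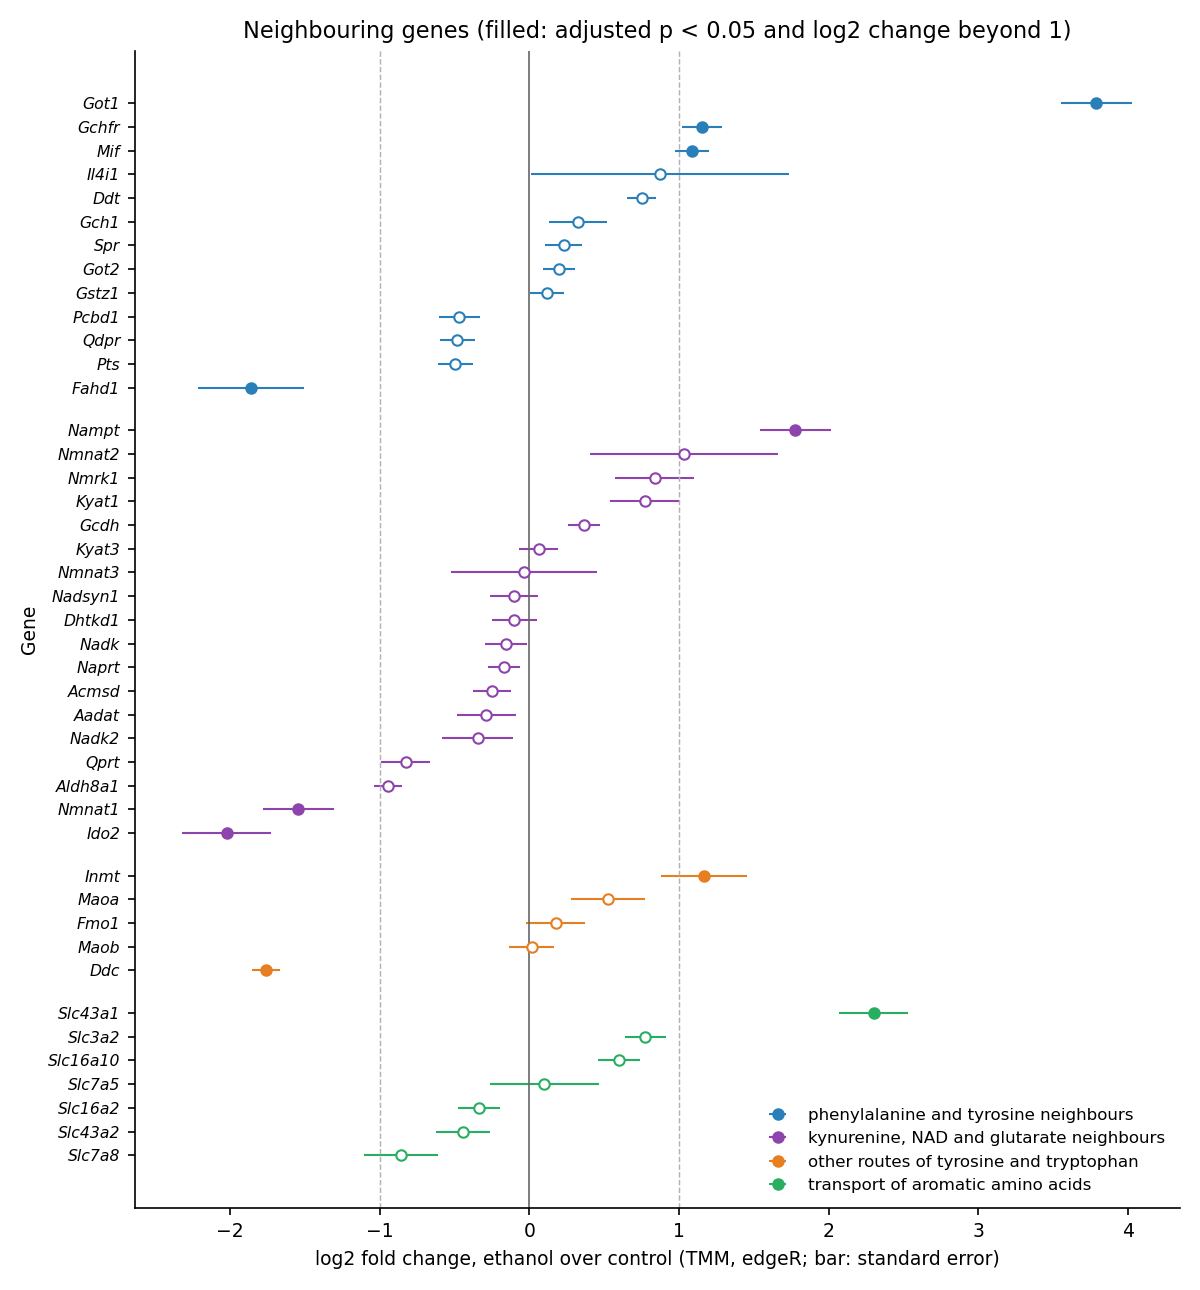
Log2 fold change, ethanol over control, with its standard error (edgeR, TMM, 3 against 3 mice) of tested genes of 4 lists around the enzymes, filled where upregulated or downregulated. Got1 (3.79), Slc43a1 (2.30) and Nampt (1.78) lie furthest to the right, and Ido2 (-2.02) and Fahd1 (-1.86) furthest to the left.

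By the KEGG annotation in the deposited table, tyrosine metabolism held 25 tested genes, with 4 upregulated (16%) and 5 downregulated (20%). Tryptophan metabolism held 38, with 2 upregulated (5.26%) and 6 downregulated (15.8%). Among all genes tested, 10.4% were upregulated and 13.8% downregulated. The KEGG sets include 4 and 5 of the members. Among 27 tested enzymes that break down other amino acids, 4 were upregulated (14.8%) and 1 downregulated (3.7%), with a median log2 fold change of 0.09. With library size alone the median was -0.57, with 4 higher and 17 lower on the adjusted p alone, where 7.39% and 48.3% of all genes were higher and lower and their median was -0.71. Sds, serine dehydratase, was at 1431, 1159 and 1475 CPM with ethanol and 123, 95.4 and 96.8 CPM in controls (log2 fold change 3.69, adjusted p = 5.61e-05, edgeR). Aass, the first enzyme of lysine breakdown, was at 1851, 1809 and 1944 CPM against 261, 205 and 207 CPM (log2 fold change 3.06, adjusted p = 5.61e-05). Both log2 fold changes were above that of Tat, a difference that was not tested. Sdsl (2.17) and Cdo1, cysteine dioxygenase (1.30, or 0.63 with library size alone), also rose, and Amdhd1 of histidine breakdown fell by 1.19.

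The genes whose log2 CPM followed Tat most closely over the 6 libraries, measured from the control mean, were Ncdn, Slc25a22 and Arhgef7, with root mean square differences of 0.08, 0.09 and 0.09 among 13851 genes with an established symbol. For Kynu they were Sh3d19, AI661453 and Acat2, with 0.08 each. Their log2 fold changes were 2.12 to 2.15 and -1.70 to -1.66, and this likeness is a description of 6 libraries in 2 groups.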

How the data were processed

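Total RNA of whole liver (TRIzol) was sequenced as paired-end reads of 3 ethanol-exposed and 3 control mice. The authors deposited a raw count per Ensembl gene and the FPKM beside it. The authors cleaned the raw reads before alignment. The aligner, counter and use of strand are not given in the sources used here. The submitters' processing notes list GRCm38 (mm10), but only 494 of 27049 genes had the same start and end as in GENCODE M21 on GRCm38, so the table's coordinates are given as deposited. In the table, 1 column of counts matches no sample and was not used. RefSeq promoters are on GRCm38.p6.

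Counts were tested with edgeR 4.0.16 in R 4.3.3 (quasi-likelihood, TMM, filterByExpr, no covariates, two-sided) with Benjamini-Hochberg adjustment over 16717 genes. Calls used the study's thresholds. Per-mouse FPKM ratios were compared by exact permutation (scipy 1.17.1). Members and lists were chosen with earlier results of these data known. By rule, the genes named are the 9 members, 9 fixed neighbours and every called gene of the pathway lists. To these were added the 3 genes most like each of the members with the largest rise and fall. Some genes under this rule are not reported here, in the text or the plot. Genes named in passing (Psmd9, Gm20708, Fh1) overlap a member. Cell type markers are named outside this rule, and not every called marker is named. Within each group, libraries differed beyond counting error (chi-square divided by its degrees of freedom, 49.6 to 496), and none was counted as a duplicate. On simulated counts for this comparison (16840 genes), edgeR recovered 52 of 99 genes changed 2-fold and 96 of 99 changed 4-fold, with 1 false call of 149. Calls there used the adjusted p alone. The simulation gave every gene the same spread between replicates, below that of the real libraries, and changed few genes. It held no difference between groups like that of the TMM factors. It therefore cannot show how many calls are false in the real libraries or which scaling is right. Alternatives were DESeq2 1.42.0, limma 3.58.1 on log2(FPKM + 1) or log2(FPKM + 0.1), other scalings and filters, the replicate number as a block, and each library left out.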

Additional observations from a re-analysis of the deposited data

How the results depend on the processing

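Tat and Tdo2 kept their direction and an adjusted p under 0.05, and Kynu kept its direction and call, under all alternatives. With library size alone and with limma on log2(FPKM + 1), with and without the filter, or on log2(FPKM + 0.1), upregulated members fell to 1, downregulated members rose to 2 and those lower on the adjusted p alone rose to 4. With library size alone 5.06% of all genes were upregulated, 32.2% downregulated and 48.3% lower on the adjusted p alone. The same shares were 2.55%, 10.7% and 51.4% with limma on log2(FPKM + 1), and 1.43%, 6.40% and 31.2% without the filter. On log2(FPKM + 0.1) they were 4.70%, 31.0% and 51.2%. The number of members lower on the adjusted p alone was 1 with the length trend removed and 1 to 2 with each library left out. Upregulated genes of the 4 lists numbered 3, 2, 2 and 3 (library size alone, log2(FPKM + 1) with and without the filter, log2(FPKM + 0.1)) and downregulated genes 14, 10, 10 and 13, against 7 and 5 as reported. Upregulated and downregulated genes of the lists numbered 5 and 4 with the length trend removed and 6 and 6 with upper quartile factors. On the adjusted p alone in edgeR they numbered 13 and 11. With library size alone and with limma on FPKM, which carry no TMM factor, 4 members turned. Hpd was at -0.31 in each, Hgd at -0.50 with library size alone and -0.51 with limma, Fah at -0.13, and Afmid at -0.42 with library size alone, -0.40 on log2(FPKM + 1) and -0.42 on log2(FPKM + 0.1). Kmo passed the test there, at -0.68 with library size alone and on log2(FPKM + 1) and -0.69 on log2(FPKM + 0.1). It was at 0.16 with the length trend removed and between -0.104 and 0.0612 with each library left out. Haao was at -1.10 with library size alone and -1.08 to -1.10 with limma, at -0.26 (adjusted p = 0.0983) with the length trend removed and between -0.50 and -0.36 with each library left out, with an adjusted p under 0.05 except without control replicate 1 or 3. In TMM CPM 6 members had a higher mean with ethanol, against 2 in FPKM. The count of all genes was 846 up and 5385 down with library size alone (86.4% down, against 57.0%), 408 and 1713 with limma on log2(FPKM + 1) (80.8% down) and 752 and 4965 on log2(FPKM + 0.1) (86.8% down). The cause of these differences beyond the scaling itself was not tested.

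Same-numbered mice did not deviate together in expression (correlations -0.03, -0.02 and -0.02). This gives no sign that the numbers pair the mice, but it cannot exclude a pairing. With the replicate number as a block, 1518 genes were up and 2000 down, with 2 members up and 1 down. The lowest count of a member was 2202, so counting error was small beside the spread between mice.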
